A study of Drosophila melanogaster with 24 samples.

Results

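Spt3 occupancy was compared with that of Pol II, the RNA polymerase of protein-coding genes, in embryos of Drosophila melanogaster, using the peak lists of the 2 Pol II and the 3 Spt3 ChIP-seq libraries among the 24 samples of a series on the SAGA coactivator complex. The members were all peaks of these 5 libraries, chosen by the antibody in the sample label, which gave 22009 Pol II and 10664 Spt3 peaks among the 83085 peaks of the 14 ChIP libraries that have a list. The remaining lists belong to the SAGA subunits Ada2b (4 libraries), Sgf11 (3) and Non-stop (2), and the 10 total chromatin libraries were not analysed on their own.

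All libraries came from embryos aged 1 to 3 h, collected at stage 4 to 6, and the labels name no treatment, strain or genotype. Pol II was precipitated with the mouse monoclonal antibody 4H8 and Spt3 with a rabbit antibody. Library numbers such as 1530_1 are those of the labels. The Pol II libraries are 1188_2 and 1632_1, and the Spt3 libraries are 1530_1, 1530_2 and 1760_2. Nothing in the labels says whether libraries came from separate embryo collections, so that p-values measure only the spread between libraries, which may be technical. With whole embryos, binding in few cells cannot be told apart from weak binding in many.

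SAGA is a large coactivator assembled from modules that acetylate histones, remove ubiquitin from histone H2B, and contact activators and the general transcription machinery. Spt3 belongs to the SPT module and, in yeast, contacts the TATA-binding protein, a step in the assembly of Pol II at promoters. The antibody 4H8 recognises the repeated C-terminal domain of the largest Pol II subunit, so Pol II can be detected at promoters and along transcribed genes. The age window spans the onset of zygotic transcription, when many genes are transcribed for the first time.

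In the lists as deposited, most Spt3 peaks lay on Pol II, whereas most Pol II peaks had no Spt3 peak. On average 80.4% ± 5.59 (SD, n = 3 libraries) of the peaks of a Spt3 library overlapped a Pol II peak by at least 1 bp, and 21.0% of the peaks of a Pol II library overlapped a peak of a given Spt3 library (20.4% in 1188_2 and 21.6% in 1632_1). With the 1563 strongest peaks of every list the share of Spt3 peaks on Pol II was 46.0%, and with every peak cut to 200 bp around its summit it was 45.6%. Pol II peaks with Spt3 were stronger and wider in the median than those without, and they carried a larger share of the bases under Pol II than of its peaks. Among Pol II peaks of similar score, wider ones did not always hold Spt3 more often. Spt3 summits inside Pol II peaks gathered within 250 bp of the Pol II summit, and in 2 of the 3 Spt3 libraries more of them lay beside it than on it.

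The lists differed in size and in the shape of their peaks. Pol II library 1188_2 held 11440 peaks that covered 17.5 Mb, and 1632_1 held 10569 peaks over 11.1 Mb. These were 14.3% and 9.18% of the 120 Mb that 2L, 2R, 3L, 3R, 4 and X span up to the last peak of any list. Spt3 peaks were fewer, with 2025 in 1530_1, 2328 in 1530_2 and 6311 in 1760_2. They covered 0.792, 1.20 and 2.97 Mb, respectively. The lists hold no reads. Sequencing depth is therefore unknown, and only the peaks and their bases show how much was detected.

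Pol II peaks were wider than Spt3 peaks, and very broad domains were far more frequent among them. The median width of Pol II peaks was 583 bp in 1188_2 and 489 bp in 1632_1. It was 316, 345 and 388 bp in Spt3 1530_1, 1530_2 and 1760_2, so the groups did not overlap. The difference in log2 median width was 0.62 (exact two-sided permutation test, p = 0.1, the smallest p that 2 against 3 libraries allow; adjusted p = 0.325 over the 13 tests made here). Peaks wider than 5 kb numbered 776 in Pol II 1188_2 and 344 in 1632_1, where they held 41.2% and 27.8% of the covered bases. The Spt3 libraries had 4, 11 and 2 such peaks. The widest Pol II peaks reached 51927 and 42604 bp.

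Overlap with Pol II was high in every Spt3 library, and it was higher against the more extensive Pol II list. Against Pol II 1188_2, 83.1% of the peaks of Spt3 1530_1 overlapped (95% Wilson interval 81.4 to 84.7), 89.0% of those of 1530_2 (87.6 to 90.2) and 83.3% of those of 1760_2 (82.4 to 84.2). Against 1632_1 the shares were 73.2% (71.2 to 75.1), 84.6% (83.1 to 86.0) and 69.2% (68.1 to 70.4). Library 1530_2 was the highest against both Pol II lists. Wilson intervals cover counting error only.

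By bases, 78.1%, 89.8% and 80.4% of the sequence under Spt3 1530_1, 1530_2 and 1760_2 lay under Pol II 1188_2, and 59.9%, 82.5% and 58.9% under 1632_1. These shares compare with the 14.3% and 9.18% of the arms that the Pol II lists cover. A Spt3 peak was often enclosed whole, in 54.2% to 77.6% of all Spt3 peaks for 1188_2 and in 26.4% to 59.0% for 1632_1. A peak in both Pol II libraries was found at 71.4% of the peaks of 1530_1, 83.0% of 1530_2 and 69.2% of 1760_2. A peak in neither was left for 15.1%, 9.45% and 16.6%.

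Spt3 peaks without Pol II were mostly far from it. Between 15.8% and 21.9% of those that did not overlap lay within 1 kb of a Pol II peak, over the 6 pairs of libraries, whereas 51.1% to 61.5% lay more than 5 kb away. The median gap was between 5182 and 8945 bp. Such peaks were therefore not, for the most part, just beyond the border of a Pol II peak.

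The mean share of peaks on Pol II was larger for Spt3 than for each other SAGA subunit. Before adjustment, the exact permutation p was under 0.05 only against Ada2b and against all other SAGA libraries together. The ranges of Spt3 and Non-stop libraries overlapped. The mean over both Pol II lists was 78.1%, 86.8% and 76.3% for Spt3 1530_1, 1530_2 and 1760_2. For Ada2b, a subunit of the histone acetyltransferase module, it was 75.2%, 71.9%, 69.5% and 74.8% in 1530_1, 1530_2, 1530_3 and 1760_2. Every Spt3 library was above every Ada2b library.

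The difference between Spt3 and Ada2b was 7.53 percentage points (exact two-sided permutation test, p = 0.0286, the smallest p that 3 against 4 libraries allow; adjusted p = 0.186). Spt3 and Ada2b share the numbers 1530_1, 1530_2 and 1760_2, and with these as a replicate block the difference was 6.41 points (exact sign-flip permutation, p = 0.25, the smallest for 3 pairs). The difference from Ada2b kept its direction but not its p under 0.05 when any 1 Spt3, Ada2b or Pol II library was left out, and was 4.35 points without Spt3 1530_2. It was 0.0571 without either Pol II library, and without a Spt3 or an Ada2b library the smallest possible p was 0.0667 or 0.1.

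Sgf11 and Non-stop form part of the deubiquitinase module. Sgf11 libraries 1377_1, 1377_2 and 1924_2 had 74.2%, 69.8% and 73.9% of their peaks on Pol II, all below every Spt3 library (difference 7.76 points, exact permutation p = 0.1, the smallest for 3 against 3; adjusted p = 0.325). It was 2.51 points in the upper 50% of each list, 3.42 with peaks of 200 bp and 4.58 without Spt3 1530_2. Non-stop 1924_1 had 79.2% and 1924_2 had 72.9%, which overlapped the Spt3 range (difference 4.34 points, exact permutation p = 0.6; adjusted p = 0.78). Without Spt3 1530_2 it was 1.15 points, without Non-stop 1924_2 1.21 and without Non-stop 1924_1 7.47. Against all 9 other libraries together Spt3 was 6.90 points higher (exact permutation p = 0.0136; adjusted p = 0.177). Without Spt3 1530_2 this was 3.71 points (exact permutation p = 0.109). With the library number as a replicate block, chosen after seeing the data, only the pairs with Ada2b hold a difference, and the value is again 6.41 points (exact sign-flip permutation, p = 0.25, the smallest for 3 pairs). No comparison kept p under 0.05 after adjustment. The plot of shares by library shows how much of the spread came from the choice of Pol II list.

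**Figure D1:**
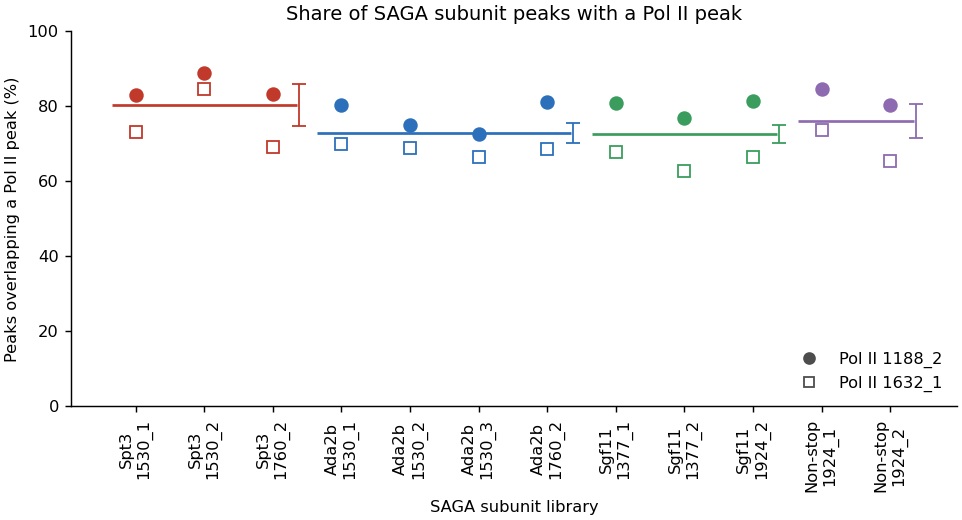
Share of the peaks of each SAGA subunit library (%, vertical axis) that overlap a Pol II peak, with filled circles for Pol II 1188_2 and open squares for Pol II 1632_1. Horizontal lines are factor means over libraries and bars at their right end are 1 SD; Spt3 1530_2 is the highest of the 12 libraries, with 89.0% and 84.6%.

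The reverse share was low, and it was higher against the longer Spt3 list. Of the Pol II 1188_2 peaks, 12.8% overlapped a peak of Spt3 1530_1, 12.9% one of 1530_2 and 35.6% one of 1760_2. Of the 1632_1 peaks, the shares were 13.2%, 14.1% and 37.5%. The mean share of 21.0% fell to 13.2% without Spt3 1760_2, the longest Spt3 list.

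Counted by bases, Pol II peaks with Spt3 weighed more. They held 35.7%, 39.5% and 70.2% of all bases under Pol II 1188_2 for Spt3 1530_1, 1530_2 and 1760_2, and 30.4%, 36.9% and 58.5% of those under 1632_1. In 1188_2, 7325 of 11440 peaks (64.0%) had no peak in any Spt3 library, and 1052 (9.20%) had one in all 3. In 1632_1 these were 6515 of 10569 (61.6%) and 992 (9.39%). The median width of 1188_2 peaks rose from 403 bp with no Spt3 library to 1156, 1879 and 3346.5 bp with 1, 2 and 3 of them, and that of 1632_1 peaks from 397 bp to 541, 729 and 1460 bp.

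Pol II enrichment was also higher where more Spt3 libraries had a peak. The median fold enrichment, the ratio of ChIP to the peak caller's background at the summit, was 2.23 in 1188_2 peaks without Spt3 and 7.10, 8.82 and 9.70 in those with 1, 2 and 3 Spt3 libraries. In 1632_1 the same medians were 1.97, 3.18, 4.29 and 5.70. Both Pol II libraries showed the same order.

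Ranked by score within a library, strong Pol II peaks had Spt3 far more often than weak ones, and with 1760_2 alone this was most of them. The score is the deposited whole number derived from the q-value, and each list was divided into 4 parts of equal number. Among the lowest-scoring part of 1188_2 peaks, 1.19%, 1.12% and 3.18% overlapped Spt3 1530_1, 1530_2 and 1760_2, and among the highest-scoring part 36.4%, 42.3% and 86.2%. In 1632_1 the same shares were 1.40%, 1.10% and 5.03% at the bottom and 35.8%, 44.7% and 86.3% at the top. The rise held at every step, in all 6 pairs of libraries.

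The difference between the highest and the lowest part by score was 53.1 percentage points in each Pol II library, as the mean over Spt3 libraries (exact sign-flip permutation over 2 libraries, p = 0.5, the smallest they allow; adjusted p = 0.722). It ranged from 34.4 to 83.0 points over the 6 pairs. The difference was 33.6 points within the upper 50% of each list and 24.7 within the 1563 strongest peaks, lists without the weak Pol II peaks. Ranking by fold enrichment in place of score gave 52.1 points in both libraries.

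Width showed a rise as well, less steep in 1632_1. From the narrowest to the widest part, the share with Spt3 1760_2 went from 7.31% to 77.2% in 1188_2 and from 15.4% to 57.2% in 1632_1. For 1530_1 and 1530_2 the widest part reached 35.5% and 37.3% in 1188_2 and 28.2% and 33.6% in 1632_1. The mean difference between widest and narrowest was 46.7 points in 1188_2 and 32.4 in 1632_1, 39.5 together (exact sign-flip permutation, p = 0.5, the smallest for 2 libraries, adjusted p = 0.722). A wider peak can overlap more by its size alone. When all peaks were cut to 200 bp around their summits and Pol II peaks ranked by their width before cutting, the mean difference was 27.5 points.

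**Figure D2:**
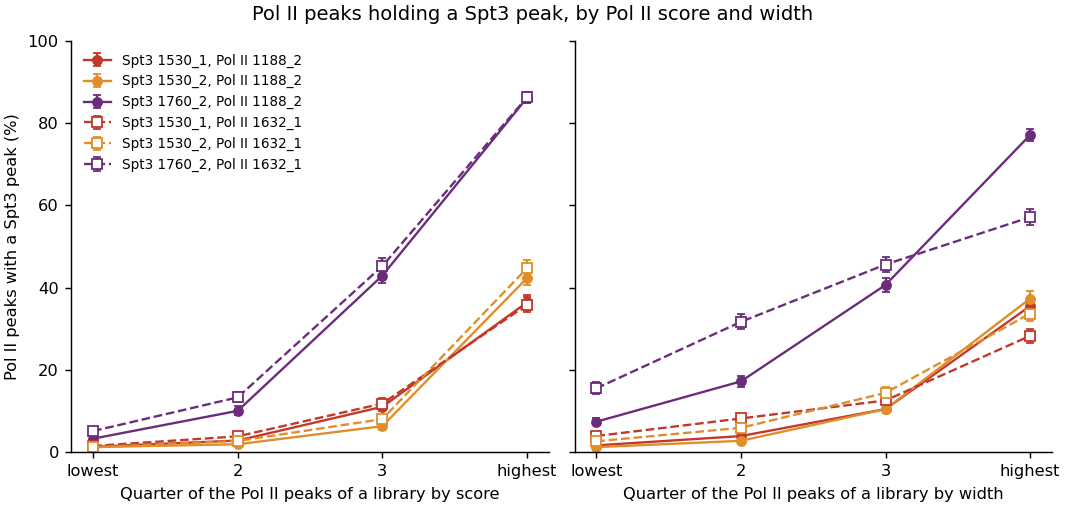
Pol II peaks that overlap a Spt3 peak (%, vertical axis) in 4 parts of equal number of each Pol II list, ordered by score (left) and by width (right), with 1 line per pair of libraries. Bars are 95% Wilson intervals; with Spt3 1760_2 the share climbs to 86.2% and 86.3% in the highest-scoring part.

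Score and width are related in the Pol II lists (Spearman's rho 0.688 in 1188_2 and 0.628 in 1632_1 across peaks, which are not independent replicates), so width was also read within parts of similar score. In the highest-scoring part of 1188_2, the share with Spt3 1760_2 was 37.8% among the 291 peaks of the second-narrowest part of the list, 81.9% among the next 724 and 95.5% among the widest 1845. In 1632_1 the same shares were 63.0%, 87.6% and 93.3%. At high score, wider Pol II peaks thus held Spt3 more often in both libraries. These shares used peaks of full width, and the part of size alone was not tested within parts by score.

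At lower score the order by width differed. In the second-lowest part by score, the share with Spt3 1760_2 went from 13.3% in the narrowest to 3.78% in the widest 1188_2 peaks, and from 23.4% to 5.06% in 1632_1. In the second-highest part by score the libraries parted, with 8.90% in the narrowest and 61.2% in the widest 1188_2 peaks but 44.3% and 29.6% in 1632_1, where peaks of intermediate width had the highest shares (60.7% and 53.0%). Broad Pol II peaks of the second-lowest part by score thus rarely held a peak of 1760_2 in either library, whereas those of the second-highest part often did in 1188_2.

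Read from the Spt3 side, strength had no common direction. From the lowest- to the highest-scoring part of Spt3 1530_1, the share on Pol II, averaged over both Pol II lists, went from 84.5% to 75.2%. In 1530_2 it went from 94.1% to 78.5%. In 1760_2 it rose from 71.4% to 81.2%. The changes of -9.32, -15.5 and 9.78 points averaged -5.03 (exact sign-flip permutation over 3 libraries, p = 0.75, with 0.25 the smallest possible; adjusted p = 0.812). Each library kept its direction against either Pol II list.

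The same split appeared in the score of Spt3 peaks with and without Pol II 1188_2. The median score percentile within the library was 48.3 with and 55.7 without Pol II in 1530_1, and 47.4 against 67.3 in 1530_2. In 1760_2 it was 51.5 with and 43.0 without. Averaged over both Pol II lists and the 3 libraries the difference was -6.77 percentile points (exact sign-flip permutation, p = 0.75; adjusted p = 0.812), and it was 0.0073 without Spt3 1530_2.

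Wide Spt3 peaks lay on Pol II more often in all 3 libraries. The widest part of 1530_1 exceeded the narrowest by 13.3 points, that of 1530_2 by 12.9 and that of 1760_2 by 33.4 (mean 19.9, exact sign-flip permutation p = 0.25, the smallest possible; adjusted p = 0.542; 13.1 without 1760_2). Against Pol II 1188_2, 90.5%, 96.2% and 97.0% of the widest part overlapped, and 79.1%, 86.8% and 70.7% of the narrowest. When all peaks were cut to 200 bp around their summits and Spt3 peaks ranked by their width before cutting, the mean difference was 0.33 points. Almost none of the difference was thus left with peaks cut to the same width.

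**Figure D3:**
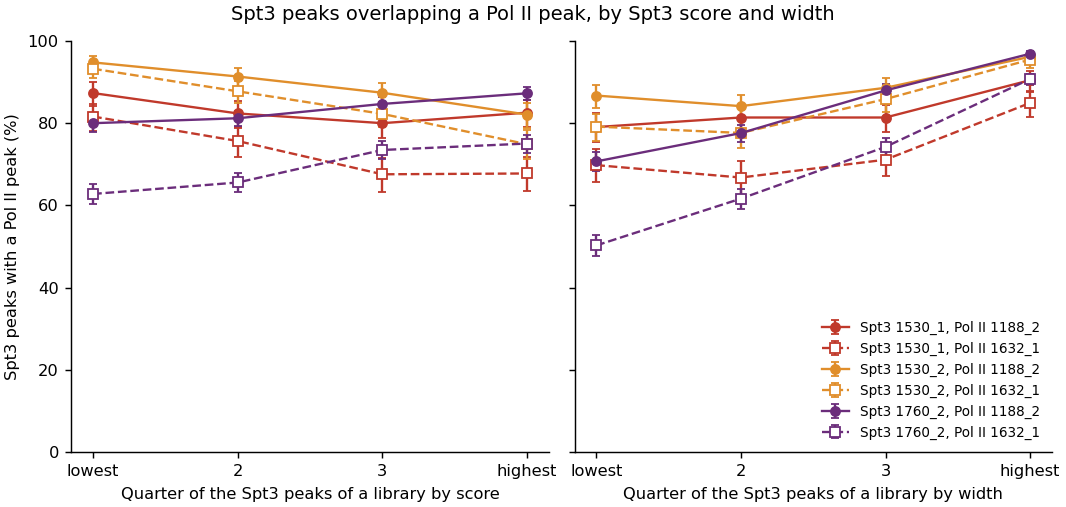
Spt3 peaks that overlap a Pol II peak (%, vertical axis) in 4 parts of equal number of each Spt3 list, by score (left) and by width (right), with 1 line per pair of libraries. Bars are 95% Wilson intervals; by score 1530_1 and 1530_2 go down and 1760_2 goes up, whereas by width the widest part is the highest in every pair.

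At places where a Spt3 summit lay inside a Pol II peak, the strengths of both were nearly unrelated. Spearman's rho between the scores was -0.27 and -0.21 for 1530_1 (1615 summits in 1188_2 and 1173 in 1632_1), -0.05 and 0.10 for 1530_2 (2030 and 1783) and 0.04 and 0.07 for 1760_2 (5004 and 3357). Several summits can share a Pol II peak, so these are descriptions. Presence of Spt3 thus went with Pol II score, while the score of Spt3 did not follow it.

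Spt3 summits lay close to Pol II summits. Of all Spt3 peaks, 79.8%, 87.2% and 79.3% (1530_1, 1530_2, 1760_2) had their summit inside a 1188_2 peak, and 57.9%, 76.6% and 53.2% inside a 1632_1 peak. The median distance from there to the Pol II summit was 172, 170 and 167 bp in 1188_2 and 164, 150 and 157 bp in 1632_1. Its mean was 163 bp ± 4.16 (SD, n = 3). Within 200 bp lay 55.5% to 64.7% of these summits, and within 500 bp 64.0% to 79.5%.

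Among factors, the Spt3 libraries (160 to 168 bp as means over both Pol II lists) lay within the range of Sgf11 and below Ada2b and Non-stop. The mean per factor was 162 bp ± 16.0 (n = 3) for Sgf11, 173 bp ± 4.56 (n = 4) for Ada2b and 249 bp ± 16.4 (n = 2) for Non-stop. Spt3 was 22.9 bp closer than the mean of the 9 other libraries (exact permutation p = 0.314; adjusted p = 0.582). This difference was -11.9 bp without Pol II 1188_2, -13.6 bp without Non-stop 1924_1 and -9.83 bp over the pairs with Ada2b, and -181 bp when all summits were taken to the nearest Pol II summit. Non-stop alone was not tested against Spt3. Including Spt3 summits outside Pol II peaks, the median distance to the nearest Pol II summit was 222.5, 214 and 248.5 bp in 1530_1, 1530_2 and 1760_2.

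In 2 of the 3 Spt3 libraries, summits lay beside the Pol II summit more often than on it. In 1530_1, 9.10% of the summits inside 1188_2 peaks were less than 50 bp from the Pol II summit, 18.7% were 100 to 150 bp away and 20.0% 150 to 200 bp. In 1760_2 the same shares were 12.2%, 19.1% and 15.3%. In 1530_2 they were 20.0%, 13.9% and 9.41%, so that the step nearest to the Pol II summit was the fullest. The other Pol II list gave the same contrast, with 14.6%, 17.9% and 21.7% for 1530_1, 13.7%, 18.8% and 17.6% for 1760_2 and 25.6%, 11.6% and 9.98% for 1530_2. The offset was not particular to Spt3. In 1188_2 peaks, every library of Ada2b, Sgf11 and Non-stop had more summits at 100 to 150 bp than under 50 bp. For Sgf11 1377_1 these shares were 25.6% and 5.65%, and for Ada2b 1760_2 18.7% and 11.5%. In 1632_1 peaks, Ada2b 1530_2 and 1530_3 and Non-stop 1924_1 had the opposite order.

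Beyond 250 bp the summits thinned out in every pair, to between 1.29% and 2.48% in the step from 250 to 300 bp. Library 1530_2 was thus apart from the others in its distances as well as in its higher share on Pol II.

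Spt3 summits were also found more often on the side of the Pol II summit that faced the nearer end of the Pol II peak. This was counted for Spt3 summits less than 500 bp from the Pol II summit in Pol II peaks of 2000 bp and over. The shorter side held 67.9%, 54.7% and 70.0% of them for 1530_1, 1530_2 and 1760_2 in 1188_2, and 71.9%, 53.1% and 71.1% in 1632_1. Where the long side was at least 3 times the short one, the shares were 76.7%, 58.0% and 78.3%, and 75.9%, 55.5% and 75.9%. Over libraries the mean for such lopsided peaks was 70.1% ± 11.5 (n = 3) for Spt3, 67.2% ± 7.83 (n = 4) for Ada2b, 78.9% ± 0.88 (n = 3) for Sgf11 and 75.3% ± 3.99 (n = 2) for Non-stop, without a test. All 12 libraries were above 50%. The direction of transcription was not used, since no annotation of the genome build was at hand.

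Over Pol II peaks of all widths together, Spt3 summits were nearer to an edge than even placement would put them. The median distance to the nearer edge was 424, 718 and 356 bp in 1188_2 and 216, 354 and 194 bp in 1632_1, which is 17.6%, 22.3% and 19.3% and 14.3%, 22.9% and 16.7% of the width of the peak. Summits spread evenly along a peak would have a median of 25%. By width class, 1530_2 passed this in Pol II peaks of 500 to 1000 bp (33.3% in 1188_2 and 30.7% in 1632_1). In 1188_2 it also did so in peaks under 500 bp (25.4%) and of 10000 bp and over (25.3%). All other pairs and width classes were below. The mean of 18.9% ± 3.42 (n = 3) was 0.09 points from that of the other SAGA libraries (exact permutation p = 0.977; adjusted p = 0.977).

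The distance between summits grew with the width of the Pol II peak. Only Spt3 summits inside the Pol II peak were counted, so a wider peak allows a larger distance by its size alone. The part of size in this growth was not tested. In Pol II peaks under 500 bp the median was 62 to 116 bp over the 6 pairs, in peaks of 1000 to 2000 bp 88.5 to 166 bp, and in peaks of 2000 to 5000 bp 143 to 210.5 bp. It was 213 to 1103 bp in peaks of 5000 to 10000 bp and 870.5 to 6316 bp in those of 10000 bp and over. The median distance thus stayed at or below 210.5 bp in Pol II peaks of 2000 to 5000 bp and passed 870 bp in every pair in the broadest domains.

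Most of these domains held Spt3 in each library. Of the 227 peaks of 10000 bp and over in 1188_2, 92.1% overlapped a peak of 1760_2, 78.4% one of 1530_2 and 64.3% one of 1530_1. For the 83 in 1632_1 the shares were 91.6%, 85.5% and 65.1%. All 3 Spt3 libraries had a peak in 62.6% and 65.1% of them, compared with 1.03% and 2.61% of the Pol II peaks under 500 bp. Per 10 kb of Pol II peak the Spt3 libraries differed. Library 1760_2 had its most summits in peaks of 500 to 1000 bp (4.25 in 1188_2 and 5.02 in 1632_1) and 2.08 and 1.98 in the broadest ones. Library 1530_2 had its most in the broadest peaks (1.57 and 2.40, against 0.926 and 1.81 at 500 to 1000 bp). For 1530_1 the broadest peaks held 0.760 and 0.744, and those of 500 to 1000 bp 0.887 and 1.35.

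**Figure D4:**
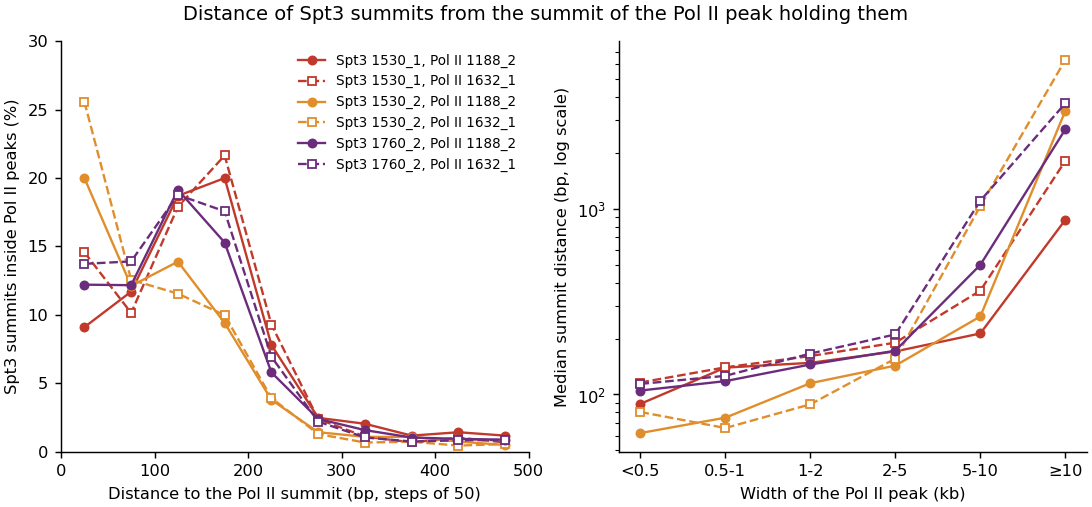
Left, share of the Spt3 summits inside Pol II peaks (%) in steps of 50 bp from the Pol II summit; right, median distance between summits (bp, log axis) by the width of the Pol II peak (kb), with 1 line per pair of libraries. Summits of 1530_1 and 1760_2 are most frequent between 100 and 200 bp, those of 1530_2 within 50 bp, and medians pass 870 bp in peaks of 10000 bp and over.

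A single Pol II peak could hold many Spt3 peaks. Of the 1188_2 peaks that overlapped Spt3, 12.6%, 20.1% and 21.1% held 2 or more peaks of 1530_1, 1530_2 and 1760_2, and of the 1632_1 peaks 9.06%, 15.9% and 13.4%. The most in one Pol II peak were 6, 20 and 13, in both Pol II libraries. Spt3 peaks sharing a Pol II peak are not independent of each other.

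Sites found in at least 2 of the 3 Spt3 libraries were taken as reproducible, which gave 2437 sites. Of these, 1885 (77.3%, Wilson interval 75.6 to 79.0) had a Pol II peak in both libraries, 255 (10.5%) in 1 and 297 (12.2%, 10.9 to 13.5) in neither. Pol II was present in both libraries at 79.2% of the 1293 sites found in 3 Spt3 libraries and at 75.3% of the 1144 found in 2. Sites without Pol II were narrower, with a median of 399 bp against 610 bp, and their median Spt3 percentile was 51.0 against 47.2. Left-out libraries moved the number without Pol II, to 516 when 1632_1 was the only Pol II list, and to 178 and 170 without Spt3 1530_1 and without 1760_2.

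Sites with Pol II in 1 library alone were of different kinds. Pol II 1188_2 alone had a peak at 219 sites, of which 11.9% were off the main arms, on heterochromatic or unplaced sequence. Pol II 1632_1 alone had one at 36, of which 32 (88.9%) were off the arms. Reads that fit a few places were kept in the alignment, and the part of repeats in these peaks was not tested. Of the 2307 sites on the arms, 80.1% had Pol II in both libraries, compared with 27.7% of 130 off them.

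By chromosome, the mean share of Spt3 peaks on Pol II over the 6 pairs was 83.6% on 2L, 85.4% on 2R, 82.1% on 3L and 81.8% on 3R. It was 78.3% on X, 70.1% on 4 and 45.4% off the arms. Ranges over the pairs overlapped among the arms, with 72.5% to 94.0% on 2R and 66.6% to 87.8% on X. Off the arms the range of 26.1% to 57.9% was below that of every arm except 4, where it was 50.8% to 85.1%.

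Spt3 sites with and without Pol II both carried other SAGA subunits. Ada2b had a peak in at least 1 library at 94.4% of the 1885 sites with Pol II and 79.5% of the 297 without. By the same count Sgf11 was at 94.6% and 85.2%, and Non-stop at 99.6% and 87.5%. A peak in at least 3 Ada2b libraries was found at 46.6% and 55.2%, the opposite order. In at least 2 libraries, Sgf11 was at 88.0% and 77.1%, and Non-stop at 96.1% and 79.5%. No library of another subunit had a peak at 3 sites with Pol II and at 31 without (10.4%). Each of these subunits, taken alone, thus had a peak in some library at most Spt3 sites without Pol II. Their joint presence was not counted.

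By library, the difference was in 1 direction for the deubiquitinase subunits and mixed for Ada2b. Non-stop 1924_1 had a peak at 96.2% of sites with Pol II and 79.8% of those without, and 1924_2 at 99.5% and 87.2%. Sgf11 1377_1, 1377_2 and 1924_2 were at 82.0%, 92.4% and 84.6% with Pol II and at 77.4%, 84.8% and 68.4% without. Ada2b 1530_1 and 1760_2 were higher with Pol II (73.1% against 65.0%, and 93.2% against 78.5%). Ada2b 1530_2 and 1530_3 were lower with Pol II (45.5% against 55.6%, and 38.1% against 52.5%).

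Over all 9 libraries the mean difference was 6.15 points in favour of sites with Pol II (higher in 7 of 9, exact sign-flip permutation p = 0.141; adjusted p = 0.366). It depended on the libraries that defined the sites, being -5.43 points without Spt3 1530_1 (exact permutation p = 0.23) and 10.3 without 1530_2 (p = 0.0195). Without Pol II 1188_2 it was 6.54 (exact permutation p = 0.0234) and without Ada2b 1530_3 it was 8.72 (p = 0.0391). On the main arms alone it was 3.22 points (exact sign-flip permutation p = 0.449). Off the arms lay 12.1% of the sites without Pol II and 1.91% of those with Pol II in both libraries.

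**Figure D5:**
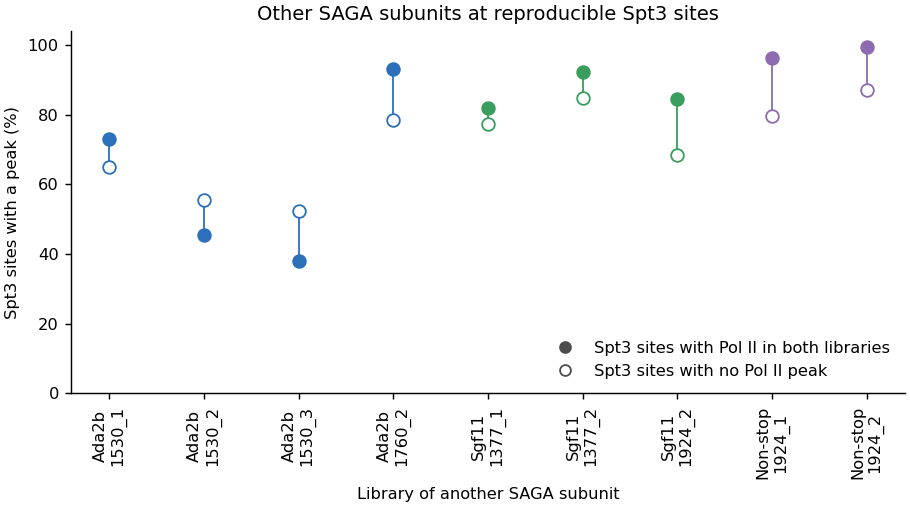
Share of reproducible Spt3 sites (%, vertical axis) with a peak in each library of another SAGA subunit, with filled circles for the 1885 sites with Pol II in both libraries and open circles for the 297 with none. Filled circles are above open ones in 7 of 9 libraries, and below in Ada2b 1530_2 and 1530_3.

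Seen from regions with a peak in both Pol II libraries, Spt3 was more frequent at strong Pol II. Of the 5755 such regions, 2439 (42.4%) had no Spt3 peak, 1700 had one in 1 library, 670 in 2 and 946 (16.4%) in 3. Divided into 4 parts by their mean Pol II score percentile, 9.31%, 48.0%, 79.4% and 93.9% had a Spt3 peak in some library, from weakest to strongest. Spt3 in all 3 libraries was found at 1.18%, 5.49%, 16.7% and 42.4%. For any of the other subunits these shares were 29.9%, 75.7%, 94.0% and 99.7%, from 9 libraries against 3 for Spt3.

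Strong Pol II regions without Spt3 were narrow. They numbered 88 of the 1438 in the strongest part (6.12%), and their median width was 645.5 bp compared with 3346.5 bp in the rest. Non-stop had a peak at 83 of them, Sgf11 at 40 and Ada2b at 18, and 4 had no SAGA peak at all. Non-stop is the subunit with the longest lists. Some other SAGA subunit had a peak at 99.7% of all 1438 regions of the strongest part. The share of each subunit alone over all of them was not counted, so these counts cannot be called particular to regions lacking Spt3.

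Single regions are described by their dm3 coordinates, and their genes are not given since no dm3 annotation was at hand. They were chosen by score percentile, or in the last class by the number of Spt3 sites, so that their values illustrate each class. The strongest reproducible Spt3 site with Pol II lay on 2L from 12520127 to 12520815, with a Spt3 fold enrichment of 9.03 ± 0.72 (SD, n = 3) and a Pol II fold of 3.01 ± 0.15 (n = 2). Spt3 summits there were 45, 48 and 54 bp from the 1188_2 summit and 3, 6 and 12 bp from the 1632_1 summit. Its Pol II percentiles were only 54.7 and 67.3, although its Spt3 percentiles were all above 99.

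The site from 21019306 to 21020078 on 3R had a Spt3 fold of 8.80 ± 0.80. It lay in broad Pol II peaks with a fold of 9.69 ± 3.70 at their own summits. Those summits were 8905 to 8931 bp from the Spt3 summits, and Pol II enrichment at the site itself was not measured. The site from 18858988 to 18859638 on 2L (Spt3 fold 9.32 ± 1.46) had a Pol II fold of 4.01 ± 2.17 and summit distances of 195 to 262 bp. A near offset and a remote summit in a broad domain were thus both seen at strong sites.

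The remaining strong sites with Pol II included 2 on chromosome 4. That from 89051 to 90408 had a Spt3 fold of 8.69 ± 1.32, a Pol II fold of 7.17 ± 3.88 and summit distances of 645 to 651 bp. That from 152438 to 153135 had folds of 8.14 ± 2.01 and 6.20 ± 3.57 and distances of 140 to 175 bp. The site from 4553325 to 4553869 on 3L had a Spt3 fold of 7.85 ± 0.51 on weak Pol II, with a fold of 2.35 ± 0.86, a percentile of 11.1 in 1632_1 and distances of 39 to 90 bp. In all 6 sites every library of Ada2b, Sgf11 and Non-stop had a peak.

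The Spt3 sites with no Pol II peak were picked by the same rule, so their high Spt3 enrichment follows from the choice. Among all 297 reproducible sites without Pol II, 31 (10.4%) had no other subunit, against 3 of 1885 with Pol II. The strongest lay on 2R from 8930575 to 8931186, with a fold of 9.15 ± 0.80 (n = 3) and Spt3 percentiles of 99.9 in all 3 libraries. Those on 3L from 6052127 to 6052678 and from 2531319 to 2531811 had folds of 8.90 ± 2.22 and 8.41 ± 2.30. A further pair of sites on 2R, from 20224959 to 20225459 and from 11735420 to 11735815, had 8.0 ± 1.46 and 7.97 ± 1.02, and the site on 4 from 856070 to 856886 had 7.46 ± 1.22. All 9 libraries of the other subunits had a peak at each of the 6 sites, so that all 4 subunits were found there without a Pol II peak.

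Strong Pol II regions with no Spt3 peak were mostly short. The strongest lay on X from 18528536 to 18529124, with a Pol II fold of 12.8 in 1188_2 and 8.03 in 1632_1, and with peaks in 3 Sgf11, 2 Non-stop and 0 Ada2b libraries. Regions on 2R from 19091047 to 19091660 and from 17759303 to 17759854, on 3L from 21699085 to 21699671 and from 9496667 to 9498669, and on X from 4942043 to 4943211 had mean folds of 9.30 to 9.97. None of the 6 had an Ada2b peak, and all 6 had Non-stop in at least 1 library.

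The regions with the most separate Spt3 sites were broad and strong in Pol II. They were picked by that number, and a wider region can hold more sites by its size alone. The region on 3R from 15126783 to 15152116, 25334 bp wide, held 8 reproducible Spt3 sites with a Pol II fold of 9.62 ± 3.21 (n = 2), yet its highest Spt3 percentiles were 55.9 in 1530_2 and 51.3 in 1760_2, and 1530_1 had no peak there. The region on 2R from 2066467 to 2084237 held 7 sites, and those on 3R from 678266 to 697787 and on 2L from 18135317 to 18152787 held 6 each. The last had Spt3 percentiles of 96.1, 96.3 and 99.3 and summits 286 to 305 bp from the Pol II summit, whereas the highest Spt3 percentile of the others was 77.8.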

How the data were processed

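Peak lists of 14 ChIP-seq libraries from embryos aged 1 to 3 h were analysed. The authors mapped their single reads (the submitters' processing notes name CASAVA 1.8.2) to the dm3 genome by bowtie, with reads of few alignments retained, and called peaks for each library using default MACS2. Their methods name Spt3, Ada2b and Sgf11. For Pol II and Non-stop an identical procedure was assumed. Versions of bowtie and MACS2 and the control for peak calling are not given in the sources used here.

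Each deposited score is the −log10 q multiplied and cut to a whole number. The deposited fold enrichment relates ChIP to background at a summit as a ratio. The authors' files also give −log10 p and −log10 q from MACS2 and the summit of every peak. Sites under the threshold of MACS2 are missing from the lists and were treated as unbound.

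Overlap was 1 bp or more. Percentiles are ranks of score within a list, and a region lacking a peak in a library counted as 0 in means. Reproducible Spt3 sites needed peaks in 2 libraries, joined where they overlapped. Shares were averaged over both Pol II lists, then over libraries. Library means were compared by exact two-sided permutation or sign-flip tests, with Benjamini-Hochberg adjustment over 13 tests. Python 3.11.15, NumPy 2.4.6, pandas 2.3.3, SciPy 1.17.1 and matplotlib 3.10.9 were used. Overlaps equalled those of bedtools 2.31.1 in 24 of 24 pairs of lists, and were tested on simulated lists. The alternatives were 50% coverage, a −log10 q of at least 5, the upper 50% of each list, 1563 peaks per list, peaks of 200 bp, the main arms alone, and left-out libraries. The members, the tests and the rule for named regions (the 6, 6, 6 and 4 leading regions of 4 classes by score percentile, or by number of Spt3 sites, on the main arms) were chosen with earlier results of these data known.

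Spt3 and Ada2b share library numbers, each with 1 total chromatin library. Over 3739 sites, score percentiles centred on each factor's mean correlated at 0.101, 0.317 and 0.439 between libraries of equal number. Between libraries of unequal number the correlation ranged from -0.368 to 0.247, with 0.181 for Spt3 1760_2 and Ada2b 1530_1. The correlation thus hardly set the 1530_1 pair apart. The equal numbers were used as pairs all the same. Pol II shares no number with Spt3. Gene names and sequences were not used, since the reference tables describe another build.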

Additional observations from a re-analysis of the deposited data

Results flagged for a closer look

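The relation of Spt3 score to Pol II overlap differed between library sets. From the lowest- to the highest-scoring part, the share of Spt3 peaks on Pol II changed by -9.32 points in 1530_1 and -15.5 points in 1530_2, both of set 1530, and by 9.78 points in 1760_2, the single library of set 1760. Both libraries of one set moved one way and that of the other set the opposite way, and the difference was not tested. Among 10 measures of the 4 Ada2b libraries, no library stood apart by Dixon's criterion, which chance would meet in about 1 of 20 groups.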

How the results depend on the processing

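Over 19 results, 261 values were recomputed under alternatives, 3 of them (the replicate block for further comparisons) chosen after seeing the data. Of these, 17 lost and 5 gained a p under 0.05, 13 changed sign and 32 moved by more than the spread between libraries or by over 1.5 times. The other 194 include many that no p could have moved, since in 103 values the smallest possible p was 0.05 or more. The same holds for 10 of the 17 that lost their p, which says nothing of a smaller effect. With the strongest 1563 peaks of each list, a setting that shortens the Pol II lists by construction, the share of Spt3 peaks on Pol II was 46.0% and that of Pol II peaks with Spt3 39.1%. With peaks of 200 bp these were 45.6% and 14.5%, with 50% of the SAGA peak covered 73.1% and 18.5%, and with the upper 50% of each list 74.2% and 22.8%. The reverse share was 23.5% at a −log10 q of at least 5. Leaving out 1 library gave 75.7% to 85.1% and 13.2% to 25.0%, the lowest reverse share being without Spt3 1760_2.

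The difference from Ada2b was 15.2 points in the upper 50% of each list (exact permutation p = 0.0571), 9.43 with equal numbers (p = 0.286) and 10.2 within set 1530 (p = 0.1). With 1 library left out it was 4.35 to 9.59 (exact permutation p from 0.0571 to 0.133), the lowest without Spt3 1530_2. With the numbers shared by Spt3 and Ada2b as a replicate block it was 6.41 (exact sign-flip p = 0.25). For the comparison with all other SAGA libraries the block leaves the same pairs, with 6.41 again. The summit and edge differences were -9.83 bp (exact sign-flip p = 0.25) and 0.053 points (p = 1) over these pairs. Sgf11 and Non-stop share no number with Spt3, nor does Pol II, so those comparisons had no block. The difference from all other SAGA libraries was 8.30 in the upper 50% (exact permutation p = 0.105), 9.65 with equal numbers (p = 0.0636), and 3.71 (without Spt3 1530_2) to 8.95 with 1 library left out.

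The distance of Spt3 summits to Pol II summits was 43.25 bp with peaks of 200 bp, 228 bp from all Spt3 summits to the nearest Pol II summit, 699 bp between midpoints, and 157 to 169.7 bp with 1 library left out. Between midpoints Spt3 was 105 bp farther than the other SAGA libraries (exact permutation p = 0.241), the opposite sign. In the other settings the difference was -6.25 bp (upper 50%) to -181 bp (all summits), and it was -33.9 to -11.9 bp with 1 library left out. The distance to the nearer edge was 15.0% of the width in the upper 50% and 28.2% with peaks of 200 bp. Its difference from other SAGA libraries was -1.79 (without Spt3 1530_2) to 1.55 with 1 library left out, and it was also negative without Pol II 1632_1, Ada2b 1530_1 or any 1 Sgf11 library.

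The change of Pol II overlap with Spt3 score was 5.92 points with peaks of 200 bp, and -12.4 to 0.23 with 1 library left out, positive without 1530_2. With 50% of the Spt3 peak covered it was -10.9, with equal numbers -13.8 and in the upper 50% -1.24. The changes with Pol II score (24.7 to 53.7 points) and Spt3 width (0.33 to 42.4) and the log2 width difference (0.64 to 2.08) kept their sign in all settings other than left-out libraries, and with 1 library left out (38.6 to 62.3, 13.1 to 24.0 and 0.49 to 0.74). The 0.33 points for Spt3 width came with peaks of 200 bp, where almost none of the 19.9 points of the main setting was left. The change with Pol II width was 27.5 to 43.7 points in settings other than left-out libraries, and 31.4 to 46.7 with 1 library left out. The percentile difference of Spt3 peaks with and without Pol II was 4.49 with peaks of 200 bp, and -14.9 to 0.0073 with 1 library left out. Reproducible sites with Pol II numbered 901 in the upper 50% of each list, 543 with equal numbers, 1073 with peaks of 200 bp, 1024 for peaks in all 3 Spt3 libraries, 4586 for at least 1, and 1039 (without Spt3 1760_2) to 2104 with 1 library left out. Those without Pol II numbered 742 with equal numbers, 849 with peaks of 200 bp, 154 in all 3 libraries, 1082 in at least 1, and 170 to 516 with 1 library left out.

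The difference of other SAGA subunits between sites with and without Pol II was -2.0 in the upper 50% (exact sign-flip p = 0.711), 7.12 with equal numbers (p = 0.0312) and 11.8 with peaks of 200 bp (p = 0.0117). The main arms alone gave 3.22 (exact sign-flip p = 0.449). With 1 library left out it was -5.43 (without Spt3 1530_1) to 10.3 (without Spt3 1530_2). Beyond the settings that shorten lists or peaks by construction, the cause of these shifts was not tested. Read depth is unknown, and it limits which weak sites are in a list.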

Other observations

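The change of Pol II overlap with score was not particular to Spt3 in its mixed sign. For Ada2b, the highest-scoring part of the peaks was on Pol II less often than the lowest in all 4 libraries, by -24.0, -41.6 and -42.8 points in 1530_1, 1530_2 and 1530_3 and by -8.25 points in 1760_2. In Ada2b 1530_3, 47.9% of the highest-scoring peaks overlapped Pol II and 90.8% of the lowest. For Sgf11 the change was 6.19, 14.9 and 7.58 points in 1377_1, 1377_2 and 1924_2, and for Non-stop -7.60 and 8.82 points in 1924_1 and 1924_2. Within numbers 1530_1, 1530_2 and 1760_2, the value of Spt3 was above that of Ada2b each time. These differences between factors were not tested.

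Spt3 libraries shared a smaller part of their joined bases with each other than the Pol II libraries did. The Jaccard index, shared over joined bases, was 0.597 between Pol II 1188_2 and 1632_1, and 0.385, 0.239 and 0.258 between Spt3 1530_1 and 1530_2, 1530_1 and 1760_2, and 1530_2 and 1760_2. This index cannot exceed the ratio of the smaller to the larger list. The Spt3 lists covered 0.792, 1.20 and 2.97 Mb, and the Pol II lists 17.5 and 11.1 Mb. The part of list size in the difference was not tested. Of the peaks of 1530_1 and 1530_2, 96.3% and 84.1% overlapped a peak of 1760_2, and 29.3% and 31.0% of those of 1760_2 overlapped one of theirs. Of the Pol II peaks, 53.7% of those of 1188_2 overlapped one of 1632_1, and 94.6% the other way.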
